A study of Mus musculus with 4 samples.

Results

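The 35 genes described here make cholesterol and fatty acids or control that synthesis, and were followed by bulk RNA-seq in colonoids of the mouse colon with and without butyrate. They were chosen by symbol as enzymes of the cholesterol pathway, targets and regulators of the sterol regulatory element binding proteins (SREBPs), and lipogenic enzymes, and make up 35 of the 36144 gene names in the count table. All 35 were measured well above the filter, each within the set of 11650 genes whose mean normalised count was 50 or more. The rule uses names and no expression value, although the list was drawn up with earlier results of these data known.

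Colonoids are 3-dimensional cultures of colonic crypt epithelium. There were 4 libraries, 1 for each condition: untreated at 48 h, 2 mM sodium butyrate at 48 h, untreated at 72 h and 2 mM sodium butyrate at 72 h (day 2 and day 3 in the labels). The labels give a WT male mouse aged 24 weeks as the source, whereas the figure legend gives 1 Hes1-GFP mouse and the methods Hes1-GFP mice of both sexes, a reporter strain for the Notch effector *Hes1*, so the genotype could not be settled. Every culture, untreated ones included, came from proximal colon and was grown in Matrigel with EGF, Noggin, R-spondin, the B27 and N2 supplements, the GSK3 inhibitor CHIR99021 and the ROCK inhibitor Y-27632. Because labels and legend trace the cultures to a single mouse and each condition has 1 library, no value here can be set against replicate error. Unless stated otherwise, intervals are exact 95% Clopper-Pearson intervals on pairs of counts and cover counting error only.

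Cells build cholesterol from cytosolic acetyl-CoA through the mevalonate arm, which ends in farnesyl diphosphate, and then through squalene and a series of sterol intermediates. Fatty acids are built from the same acetyl-CoA with NADPH, and are then lengthened by elongases and given double bonds by desaturases. SREBP-2, encoded by *Srebf2*, is best known for sterol genes and SREBP-1, encoded by *Srebf1*, for fatty acid genes. Both are carried by SCAP from the endoplasmic reticulum to the Golgi for activation, and are retained by the INSIG proteins when sterols are plentiful. On promoters, SREBPs are known to act beside the factors NF-Y and Sp1.

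Promoter sequence was available for 28 of the 35 genes, from RefSeq windows on GRCm38.p6 that run from 250 bases before to 50 bases after an annotated transcript start. There were 37 windows, since 6 genes had several, and some starts lie inside the gene. Short motifs were searched on both strands: the sterol regulatory element TCACNCCAC, the NF-Y box CCAAT, the Sp1 box GGGCGG and the E box CACGTG. Stretches of 150 bases that lie before the start are shown for 6 genes. They are *Hmgcs1*, *Mvd*, *Ebp*, *Fasn*, *Acat2* and *Me1*. *Hmgcs1* is the single gene of the 28 with a match to the sterol regulatory element. *Mvd*, *Ebp* and *Fasn* had ratios below 0 at both times and hold NF-Y boxes. *Acat2* and *Me1* had the lowest and the highest ratio at 48 h. Capitals mark every match to any of the 4 motifs, on either strand. Their positions are chr13:119690201-119690350 on the plus strand for *Hmgcs1*, chr8:122443423-122443572 on the minus strand for *Mvd* and chrX:8193513-8193662 on the minus strand for *Ebp*. Those of *Fasn*, *Acat2* and *Me1*, all on the minus strand, are chr11:120824548-120824697, chr17:12960748-12960897 and chr9:86695954-86696103.
Hmgcs1: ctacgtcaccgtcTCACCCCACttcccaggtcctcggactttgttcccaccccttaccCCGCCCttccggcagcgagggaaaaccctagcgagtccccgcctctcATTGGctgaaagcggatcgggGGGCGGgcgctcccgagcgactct
Mvd: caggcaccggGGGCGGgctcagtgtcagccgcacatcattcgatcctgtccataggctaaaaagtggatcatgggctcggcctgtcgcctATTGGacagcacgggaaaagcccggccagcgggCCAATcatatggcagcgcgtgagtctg
Ebp: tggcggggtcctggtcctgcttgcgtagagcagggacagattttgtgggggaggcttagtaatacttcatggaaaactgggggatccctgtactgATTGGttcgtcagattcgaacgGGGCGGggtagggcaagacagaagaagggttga
Fasn: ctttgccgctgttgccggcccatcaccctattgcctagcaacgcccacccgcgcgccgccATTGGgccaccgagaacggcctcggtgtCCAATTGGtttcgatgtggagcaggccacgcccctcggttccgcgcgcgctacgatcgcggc
Acat2: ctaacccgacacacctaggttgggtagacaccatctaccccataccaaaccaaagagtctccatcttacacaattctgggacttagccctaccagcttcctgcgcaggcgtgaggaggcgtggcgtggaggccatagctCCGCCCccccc
Me1: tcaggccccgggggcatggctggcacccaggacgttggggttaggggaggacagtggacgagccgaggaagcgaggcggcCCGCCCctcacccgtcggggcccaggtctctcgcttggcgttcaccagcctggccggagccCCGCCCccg

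The stretch of *Hmgcs1* holds the sterol regulatory element, 1 NF-Y box and 2 Sp1 boxes. That of *Mvd* holds 2 NF-Y boxes, and that of *Fasn* holds 3, of which 2 overlap in the run CCAATTGG. The printed stretches of *Acat2* and *Me1* hold no NF-Y box and 1 and 2 Sp1 boxes. They end 22 and 39 bases before the RefSeq start, since the GENCODE annotation places an exon there.

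Over the whole windows, an NF-Y box was found in 23 of 28 genes, or 82.1% (63.1% to 93.9%, exact binomial interval), beside 41.1% of the 27025 genes with a window and 43.4% of the 9100 among them that belong to the 11650 expressed genes. At least 2 NF-Y boxes in 1 window were found in 12 of 28 genes, or 42.9%, beside 13.3% of all genes with a window. *Dhcr7*, *Me1* and *Srebf1* held the box only in windows that start more than 1000 bases inside the RefSeq bounds of the gene. In windows within 1000 bases of the outer start of the gene, a restriction added after seeing the data, it was found in 20 of 26 genes, or 76.9%, beside 38.8% of 25079 genes. By role, over all windows, 14 of the 15 genes of the mevalonate and sterol arms with a window held an NF-Y box, as did 4 of the 5 regulators and 5 of the other 8 genes. Of 47 NF-Y boxes in 37 windows, 29 lay in the last 100 bases before the start. The gene of the sterol arms without an NF-Y box was *Acat2*.

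An Sp1 box was also found in 23 of 28 genes. Its share of 82.1% stands beside 38.2% of all genes but 70.1% of the expressed genes, and the latter lies inside the members' interval. An E box was found in 6 of 28 genes, or 21.4% (8.30% to 41.0%), beside 8.09% of all genes and 12.0% of expressed genes. These 6 genes were *Hsd17b7*, *Sc5d*, *Dhcr7*, *Scap*, *Insig1* and *Elovl5*. The sterol regulatory element as spelled above was found in 1 of 28 genes, or 3.57% (0.0900% to 18.4%), beside 1.44% of all genes. A match is a run of letters and not a measured binding site, and the absence of a match says only that these letters are not in the window.

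**Figure D1:**
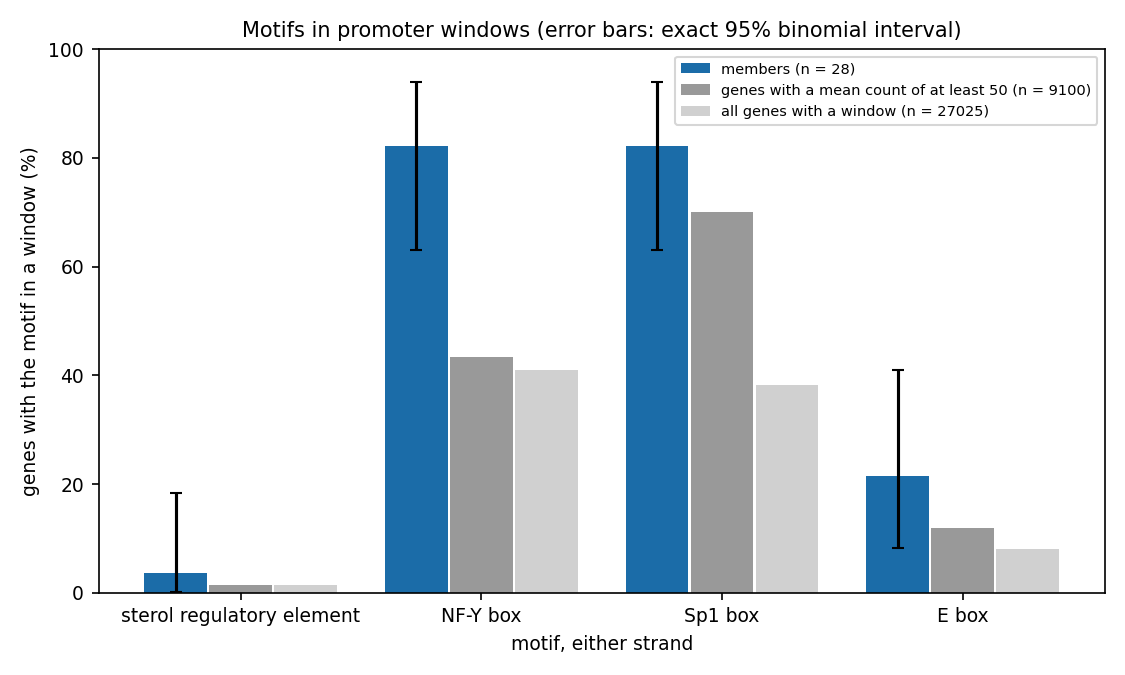
Share of genes, in percent, with each of 4 motifs on either strand of a promoter window, for the 28 members with a window (blue, with exact 95% binomial intervals), for 9100 expressed genes, with mean normalised counts of 50 or more (dark grey) and for all 27025 genes with a window (light grey). The NF-Y box stands at 82.1% of members and 41.1% of all genes, while the Sp1 box stands at 82.1% of members and 70.1% of expressed genes.

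All 35 members were expressed, at levels that differed widely. Together the 35 genes took 1.24% of the counts outside the mitochondrial genome in the untreated and 1.16% in the treated library at 48 h, and 1.05% and 1.07% in those at 72 h. Per kilobase of exon, *Scd2*, a delta-9 desaturase that makes monounsaturated fatty acids, was the most abundant member. Its level in RPKM, over all counts of a library, was 603 untreated and 564 treated at 48 h, and 483 untreated and 533 treated at 72 h, which placed it at rank 50 among 13927 genes. The next were its paralogue *Scd1* at rank 319, *Hmgcs1* at rank 375, the delta-6 desaturase *Fads2* at rank 383, *Cyp51* at rank 429 and *Acly* at rank 438. At the other end, *Acaca* stood at rank 5652 and *Insig2* at rank 6532 on the same scale.

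The members' totals were therefore led by desaturation and sterol genes, and the total was highest in untreated colonoids at 48 h. For 23 of the 35 members the highest normalised count of the 4 libraries was in untreated colonoids at 48 h, whereas 22.0% of all genes had their highest count there. In the mevalonate and sterol arms this held for 16 of 18 genes, the exceptions being *Lss* and *Dhcr7*, which were highest with butyrate at 48 h. The lowest count was in butyrate-treated colonoids at 72 h for 13 of these 18 genes, and for 24.9% of all genes. The untreated 48 h library enters both the butyrate comparison at 48 h and the time comparison in untreated colonoids, so these are not independent of each other. In bulk RNA, fewer cells of a type and less RNA per cell cannot be told apart.

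The first question was how butyrate-treated and untreated colonoids differed at 48 h. Most members were modestly lower with butyrate, the supply enzyme *Me1* and the desaturase *Scd1* were higher, and the thiolase *Acat2* and the sterol reductase *Tm7sf2* were lower by at least 1.5-fold. A gene was counted as called at a ratio of at least 1.5-fold. Of the 35 members, 2 were called higher and 2 lower, where 8.94% of all genes were called higher and 6.42% lower. The log2 ratio was below 0 for 25 members, with 53.1% of all genes below 0, and 23 of the 25 had counting intervals entirely below 0. The median of the members was -0.14, beside -0.03 for all genes. At 2 of 35 in each direction, calls were no more frequent than among all genes, and the common shift was smaller than the threshold. With the mean of both untreated libraries as the baseline, 20 members were below 0 at 48 h and the median was -0.02. *Acat2* and *Tm7sf2* were then no longer called. That baseline is not matched in time, so its ratios mix treatment with the untreated difference between 48 h and 72 h. On GRCm38 with GENCODE gene bounds, the 4 genes called lie at chr9:86581371-86695953 (*Me1*), chr19:44394455-44407879 (*Scd1*), chr17:12942890-12960747 (*Acat2*) and chr19:6062821-6068373 (*Tm7sf2*), all on the minus strand.

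At 72 h, against the untreated library of that time, no ratio reached the threshold. Of the 35 members 0 were called, with 5.87% of all genes called higher and 5.13% lower. The log2 ratios ran from -0.32 for *Ebp* to 0.26 for *Fads1*, with a median of -0.08 beside -0.00 for all genes. Again 25 members lay below 0, where 50.1% of all genes did. Below 0 at both times were 19 of 35 members, or 54.3%, where 32.7% of all genes were, and 12 members changed sign between the times, as did 37.9% of all genes. Against the mean of both untreated libraries, 29 members were below 0 at 72 h with a median of -0.17, so that which time showed the lower ratios depended on the untreated library used. No member was past 1.5-fold the same way at both times, which held for 5.11% of all genes.

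**Figure D2:**
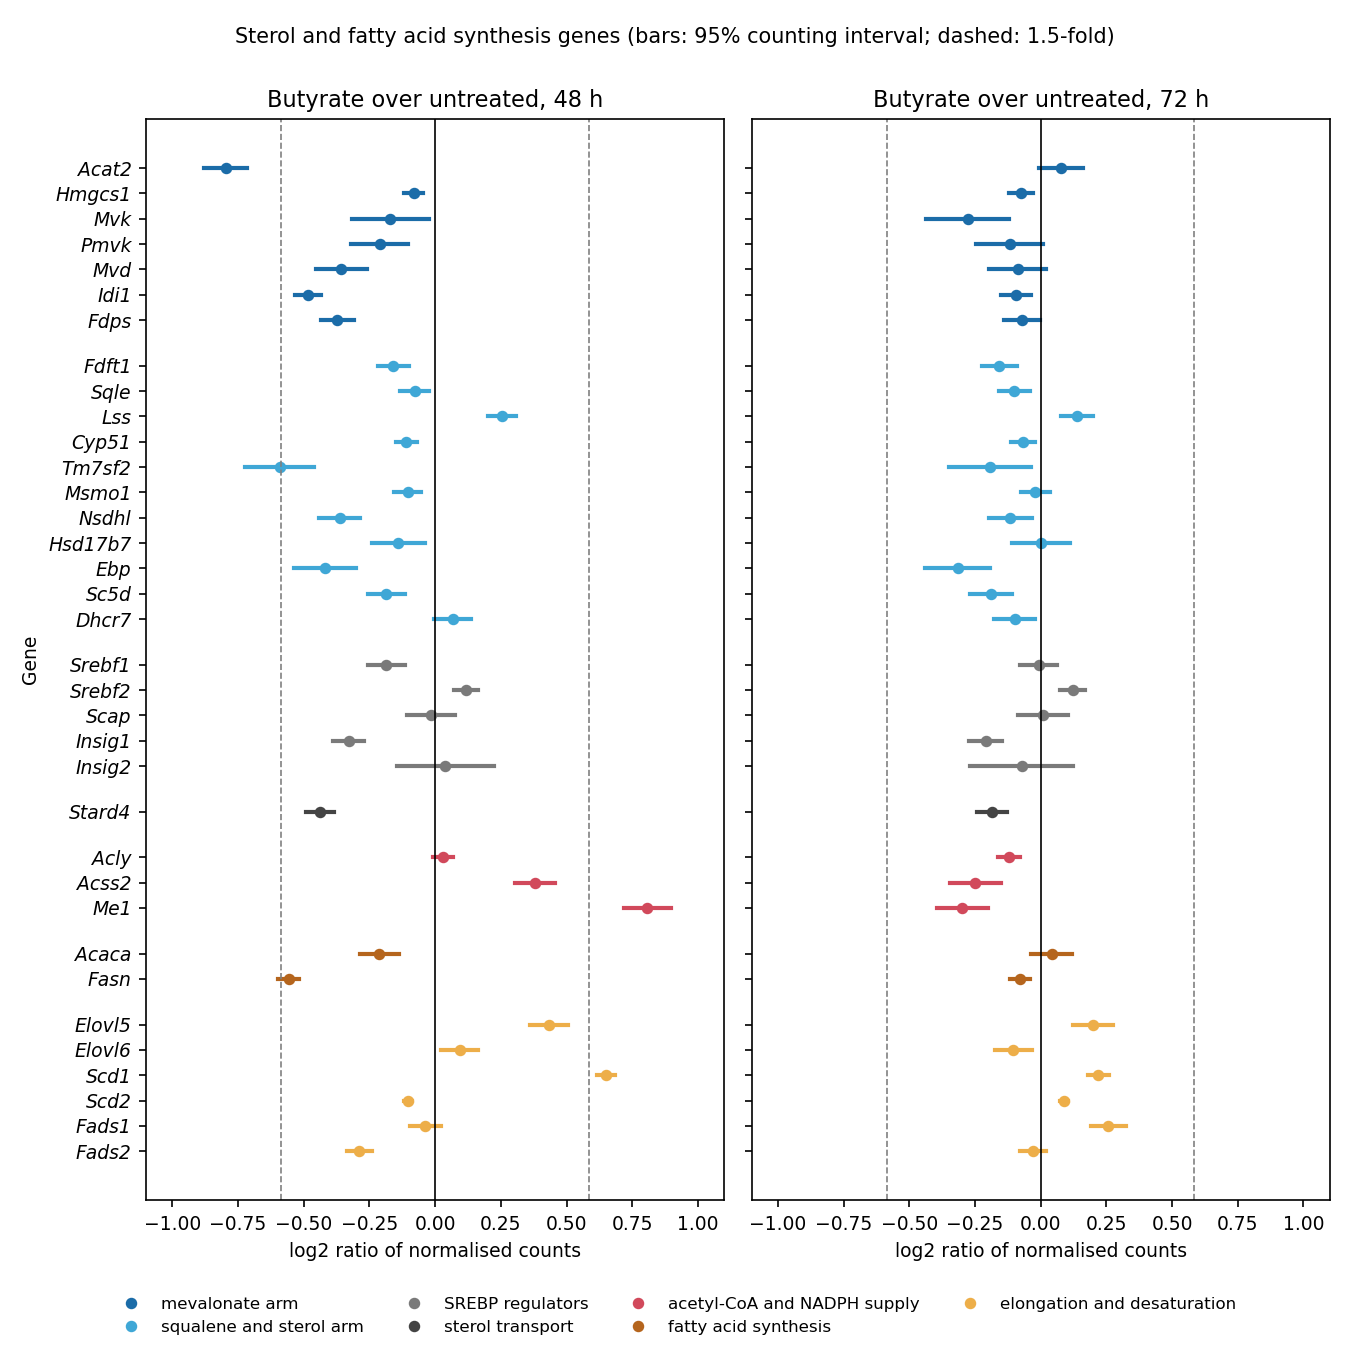
Log2 ratio of normalised counts, butyrate-treated over untreated, for each of the 35 genes at 48 h (left) and 72 h (right), grouped and coloured by role. Points are ratios of 1 library to 1 library, bars are 95% counting intervals and dashed lines mark 1.5-fold. At 48 h *Me1* and *Scd1* lie beyond the right line and *Acat2* and *Tm7sf2* beyond the left, and at 72 h no point reaches a line.

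Taking both times together, both butyrate-treated libraries lay below both untreated libraries for 10 members, or 28.6%, beside 22.4% of all genes. They were *Mvk*, *Mvd*, *Idi1* and *Fdps* of the mevalonate arm, *Nsdhl* and *Ebp* of the sterol arm, *Insig1*, *Stard4*, *Fasn* and *Fads2*. Both butyrate-treated libraries lay above both untreated libraries for 2 members, *Srebf2* and *Elovl5*, beside 20.8% of all genes. The share on the low side was near the background and that on the high side was below it.

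The 7 enzymes of the mevalonate arm were all below 0 at 48 h, with a median log2 ratio of -0.36, and 6 of 7 were below 0 at 72 h, with a median of -0.09. With the mean of both untreated libraries as the baseline, *Hmgcs1* was at 0.11 at 48 h. *Acat2*, the cytosolic acetoacetyl-CoA thiolase that opens the arm, had normalised counts of 3241 (untreated) and 1865 (butyrate) at 48 h, followed by 2333 and 2460.3 at 72 h. The untreated 48 h library stood highest and the treated 48 h library lowest, while the libraries at 72 h were close to each other. Its log2 ratio was -0.80 at 48 h (-0.88 to -0.72) and 0.08 at 72 h (-0.01 to 0.16). A stretch of 445 bases of *Acat2* transcript matches transcripts of the chaperonin gene *Tcp1* at 98.7%, so that reads from this stretch may have been divided between the genes. *Tcp1* had normalised counts of 6977, 8699.9, 7075 and 8045 in the same order of libraries, with a log2 ratio of 0.32 at 48 h (0.27 to 0.36), opposite in sign to that of *Acat2*. Whether the sharing of reads moved either value was not tested.

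*Hmgcs1*, the cytosolic HMG-CoA synthase, was the most abundant gene of the arm and the least different at 48 h. Its normalised counts were 11699.7 (untreated) and 11055 (butyrate) at 48 h, followed by 8733 and 8292.5 at 72 h. Both libraries at 48 h thus lay above both at 72 h, and the log2 ratio of butyrate to untreated was -0.08 at 48 h and -0.07 at 72 h. The kinase *Mvk* had 786 and 699 normalised counts at 48 h and 757 and 624 at 72 h, with both treated libraries below both untreated ones. Its log2 ratio of -0.28 at 72 h (-0.44 to -0.12) was the lowest of the arm at that time.

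The other 4 genes of the arm lay between these at 48 h. *Idi1*, the isopentenyl diphosphate isomerase, was at -0.48 (-0.53 to -0.43), with 7411 and 5300.4 normalised counts. *Fdps*, the farnesyl diphosphate synthase, was at -0.37, the decarboxylase *Mvd* at -0.36 and the second kinase *Pmvk* at -0.21. At 72 h these 4 were between -0.12 and -0.07, each closer to 0 than at 48 h. Against the mean of both untreated libraries this order turned, with *Idi1* at -0.28 and -0.33, *Fdps* at -0.21 and -0.25, *Mvd* at -0.20 and -0.26 and *Pmvk* at -0.01 and -0.34. A pseudogene that is identical to 684 bases of *Idi1*, *Gm13502*, held 9.64% of the counts of both and had a log2 ratio of -0.65 at 48 h and -0.14 at 72 h, the same signs as *Idi1*.

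Of the 11 enzymes that turn farnesyl diphosphate into cholesterol, 9 were below 0 at 48 h and 9 at 72 h, with median log2 ratios of -0.14 and -0.10. With the mean of both untreated libraries as the baseline, *Sqle* and *Msmo1* turned above 0 at 48 h. On that baseline *Lss* and *Hsd17b7* turned below 0 at 72 h. *Tm7sf2*, a C14 sterol reductase, had normalised counts of 1136 and 754.0 at 48 h and 753 and 659 at 72 h. The untreated 48 h library stood apart above the other three, which covered a narrow range. The log2 ratio was -0.59 at 48 h (-0.72 to -0.46) and -0.19 at 72 h (-0.35 to -0.04). The interval at 48 h includes the threshold of 1.5-fold, and with counts scaled by library totals the gene was no longer called. *Tm7sf2* shares 532 exon bases with *Vps51* on the same strand, and *Vps51* had a log2 ratio of -0.28 at 48 h and 0.12 at 72 h.

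*Lss*, the synthase that closes squalene epoxide into lanosterol, had the highest ratio of the sterol arm at both times. It had 5100.4 and 6083 normalised counts at 48 h and 4065 and 4473.5 at 72 h. Its log2 ratio was 0.25 at 48 h (0.20 to 0.31) and 0.14 at 72 h (0.08 to 0.20), so butyrate-treated colonoids were higher within each time, although the treated 72 h library lay below the untreated 48 h library. *Ebp*, the sterol isomerase named for emopamil binding, had 1316 and 983.5 normalised counts at 48 h and 1271 and 1021 at 72 h. Both treated libraries lay below both untreated ones, and the log2 ratio was -0.42 at 48 h (-0.54 to -0.30) and -0.32 at 72 h (-0.44 to -0.19).

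*Sqle*, the squalene epoxidase and a rate-limiting step of the arm, was at -0.08 and -0.10, and *Cyp51*, the lanosterol demethylase, was at -0.11 and -0.07 at 48 h and 72 h. The squalene synthase *Fdft1* was at -0.16 at each time, and its neighbour on the opposite strand, *Ctsb*, with which it shares 774 exon bases, was at 0.30 and -0.16. *Nsdhl*, a sterol dehydrogenase, was at -0.36 at 48 h and -0.12 at 72 h, and the desaturase *Sc5d* was at -0.19 at each time. The methyl oxidase *Msmo1* was at -0.10 and -0.02, the ketoreductase *Hsd17b7* at -0.14 and 0.00, and *Dhcr7*, a reductase of the final steps, at 0.07 and -0.10. For *Hsd17b7* and *Msmo1* at 72 h and for *Dhcr7* at 48 h the counting interval included 0, so these data could not tell the treated from the untreated level.

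Among the genes that control SREBP processing, *Insig1*, given below, differed most, and the others had small ratios. *Srebf2* had 7642 and 8292 normalised counts at 48 h and 7494 and 8150.0 at 72 h, so both treated libraries lay above both untreated ones, with a log2 ratio of 0.12 at 48 h (0.07 to 0.16) and at 72 h (0.07 to 0.17). *Srebf1* had 3251 and 2859 normalised counts at 48 h, a log2 ratio of -0.19 (-0.26 to -0.11), and 3332 and 3315 at 72 h, a ratio of -0.01 whose interval included 0. Gene-level counts do not separate the isoforms of *Srebf1*. *Scap*, the escort protein, was the steadiest member, with 1842, 1821, 1881 and 1893 normalised counts and a highest value 1.04 times its lowest.

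*Insig1*, a retention factor that is itself an SREBP target, had 4954 and 3943 normalised counts at 48 h and 4723 and 4085 at 72 h. Both treated libraries lay below both untreated ones, with log2 ratios of -0.33 (-0.39 to -0.27) and -0.21 (-0.27 to -0.15). Its paralogue *Insig2* was low, with 463, 475, 455 and 433 normalised counts and intervals that included 0 at both times. Per kilobase of exon, *Insig1* stood at 12.0 times *Insig2* without and 9.31 times with butyrate at 48 h, and at 11.65 and 10.6 times at 72 h. *Stard4*, which carries cholesterol through the cytosol and is another known SREBP target, had 6381 and 4705 normalised counts at 48 h and 5682 and 4997 at 72 h. Again both treated libraries lay below both untreated ones, and the log2 ratio was -0.44 at 48 h (-0.49 to -0.39) and -0.19 at 72 h (-0.24 to -0.13).

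The enzymes that supply acetyl-CoA and NADPH were the one role in which every gene was above 0 at 48 h and every gene below 0 at 72 h. *Me1*, the cytosolic malic enzyme that yields NADPH, had 1558 and 2729 normalised counts at 48 h and 1941 and 1579 at 72 h. The butyrate-treated 48 h library stood well above the other three. Its log2 ratio was 0.81 at 48 h (0.72 to 0.90), the highest of the 35 members, and -0.30 at 72 h (-0.40 to -0.20). *Acss2*, the cytosolic acetyl-CoA synthetase that activates acetate, had 2365 and 3076 normalised counts at 48 h and 2001 and 1685 at 72 h. Its highest value was in the treated 48 h library and its lowest in the treated 72 h library, with log2 ratios of 0.38 (0.30 to 0.46) and -0.25 (-0.34 to -0.15). *Acss2* shares 395 exon bases with *Gss* on the opposite strand, which was at -0.07 and -0.45. *Acly*, the ATP citrate lyase, had 10731 and 10954 normalised counts at 48 h and 9857 and 9061.5 at 72 h, with log2 ratios of 0.03 (-0.01 to 0.07) and -0.12 (-0.16 to -0.08).

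The enzymes that assemble the fatty acid chain were lower with butyrate at 48 h. *Fasn*, the multifunctional fatty acid synthase, had 12131 and 8239.9 normalised counts at 48 h and 11185 and 10589 at 72 h. Both treated libraries lay below both untreated ones, the treated 48 h library being the lowest by far. The log2 ratio was -0.56 at 48 h (-0.60 to -0.52), just short of 1.5-fold, and -0.08 at 72 h (-0.12 to -0.04). *Acaca*, the acetyl-CoA carboxylase that feeds *Fasn* with malonyl-CoA, had 3076 and 2654 normalised counts at 48 h and 2676 and 2754 at 72 h. Its log2 ratio was -0.21 at 48 h (-0.29 to -0.14) and 0.04 at 72 h (-0.04 to 0.12), where the counting interval included 0.

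Among the 6 elongases and desaturases, 3 were above 0 at 48 h and 4 at 72 h. *Scd1* had 11188.5 and 17563 normalised counts at 48 h and 9506.5 and 11068 at 72 h. The treated library was the higher one at each time, and the treated 48 h library stood far above the rest. The log2 ratio was 0.65 at 48 h (0.62 to 0.68) and 0.22 at 72 h (0.18 to 0.26). *Scd2* differed little, with 72711, 67656, 61483 and 65416 normalised counts and log2 ratios of -0.10 (-0.12 to -0.09) and 0.09 (0.07 to 0.11). Per kilobase of exon, *Scd1* therefore stood at 0.172 times *Scd2* without and 0.290 times with butyrate at 48 h, and at 0.173 and 0.189 times at 72 h. The transcripts of the pair match at 95.5% over 623 bases, where reads could be shared.

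*Elovl5*, which lengthens polyunsaturated fatty acids, had 2693 and 3638 normalised counts at 48 h and 2721 and 3123.5 at 72 h. Both treated libraries lay above both untreated ones, with log2 ratios of 0.43 (0.36 to 0.51) and 0.20 (0.12 to 0.27). *Elovl6*, which lengthens saturated chains, had 3063.5, 3267, 3371 and 3136 normalised counts, with log2 ratios of 0.09 (0.02 to 0.16) and -0.10 (-0.18 to -0.03). The delta-5 desaturase *Fads1* had 4335.5 and 4226 normalised counts at 48 h and 3442 and 4112 at 72 h. It was the highest of all members at 72 h, at a log2 ratio of 0.26 (0.19 to 0.32), while its interval at 48 h included 0. Against the mean of both untreated libraries it was at 0.08 at 72 h, below *Elovl5* at 0.21. *Fads2*, its neighbour on chromosome 19, had 8004 and 6554 normalised counts at 48 h and 6921 and 6780.5 at 72 h, with log2 ratios of -0.29 (-0.33 to -0.24) and -0.03 (-0.08 to 0.02).

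**Figure D3:**
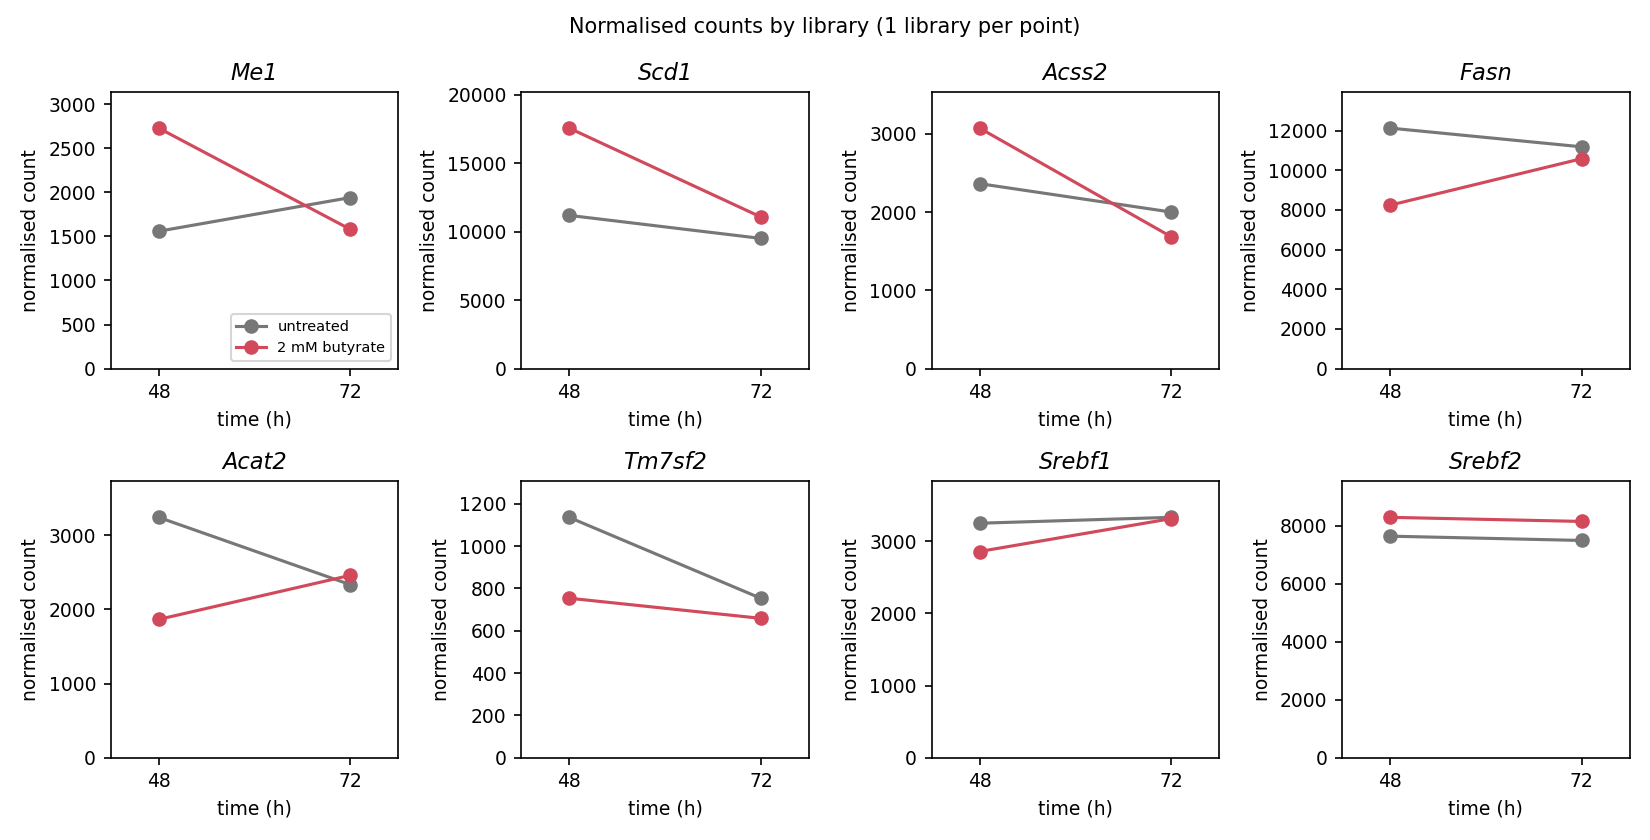
Normalised counts at 48 h and 72 h in untreated (grey) and 2 mM butyrate-treated (red) colonoids for 8 members, 1 library per point, with axes from 0. For *Me1*, *Scd1* and *Acss2* the treated 48 h library is the highest of the 4, for *Acat2* and *Tm7sf2* the untreated 48 h library is the highest, and *Srebf1* and *Srebf2* vary little.

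The second question was how the same genes differed between 48 h and 72 h within each treatment. These comparisons use the same 4 libraries as the ones above. In untreated colonoids 30 of 35 members were lower at 72 h, where 51.0% of all genes were, and all 18 genes of the mevalonate and sterol arms were among them. The median log2 ratio of 72 h over 48 h was -0.20 for the members and -0.29 for the 18 genes, beside -0.00 for all genes. Only *Tm7sf2* passed 1.5-fold, at -0.59 (-0.73 to -0.46), and no member was called higher, with 3.31% of all genes called lower and 3.08% higher. *Acat2* at -0.47, *Idi1* at -0.44, *Pmvk* and *Hmgcs1* at -0.42 each, *Fdps* at -0.34 and *Fads1* at -0.33 followed. The 5 members above 0 were *Me1* at 0.32, *Elovl6* at 0.14, *Srebf1* at 0.04, *Scap* at 0.03 and *Elovl5* at 0.01. For *Srebf1*, *Scap* and *Elovl5* the interval included 0, and each was below 0 with counts scaled by library totals.

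In butyrate-treated colonoids 25 of 35 members were lower at 72 h, where 51.2% of all genes were, with a median of -0.10. The lowest were *Acss2* at -0.87 (-0.96 to -0.78), *Me1* at -0.79 (-0.88 to -0.70) and *Scd1* at -0.67 (-0.70 to -0.63), which were the 3 members called lower, where 8.45% of all genes were. No member was called higher, with 6.61% of all genes called so. *Acat2* at 0.40 and *Fasn* at 0.36 were the members highest at 72 h relative to 48 h. Of the mevalonate and sterol genes 15 of 18 were below 0, with a median of -0.17. *Hmgcs1* was at -0.41, *Lss* at -0.44, *Sc5d* at -0.31 and *Dhcr7* at -0.29, and all of these were below 0 in untreated colonoids too. Lower values at 72 h than at 48 h were found for 15 of the 18 sterol genes in both treatments, where 30.7% of all genes had them, the exceptions being *Acat2*, *Nsdhl* and *Ebp*, which were above 0 in butyrate-treated colonoids only. For *Ebp* both intervals included 0. Among the other members, *Stard4*, *Me1* and *Fasn* had opposite signs in the treatments with neither interval including 0.

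**Figure D4:**
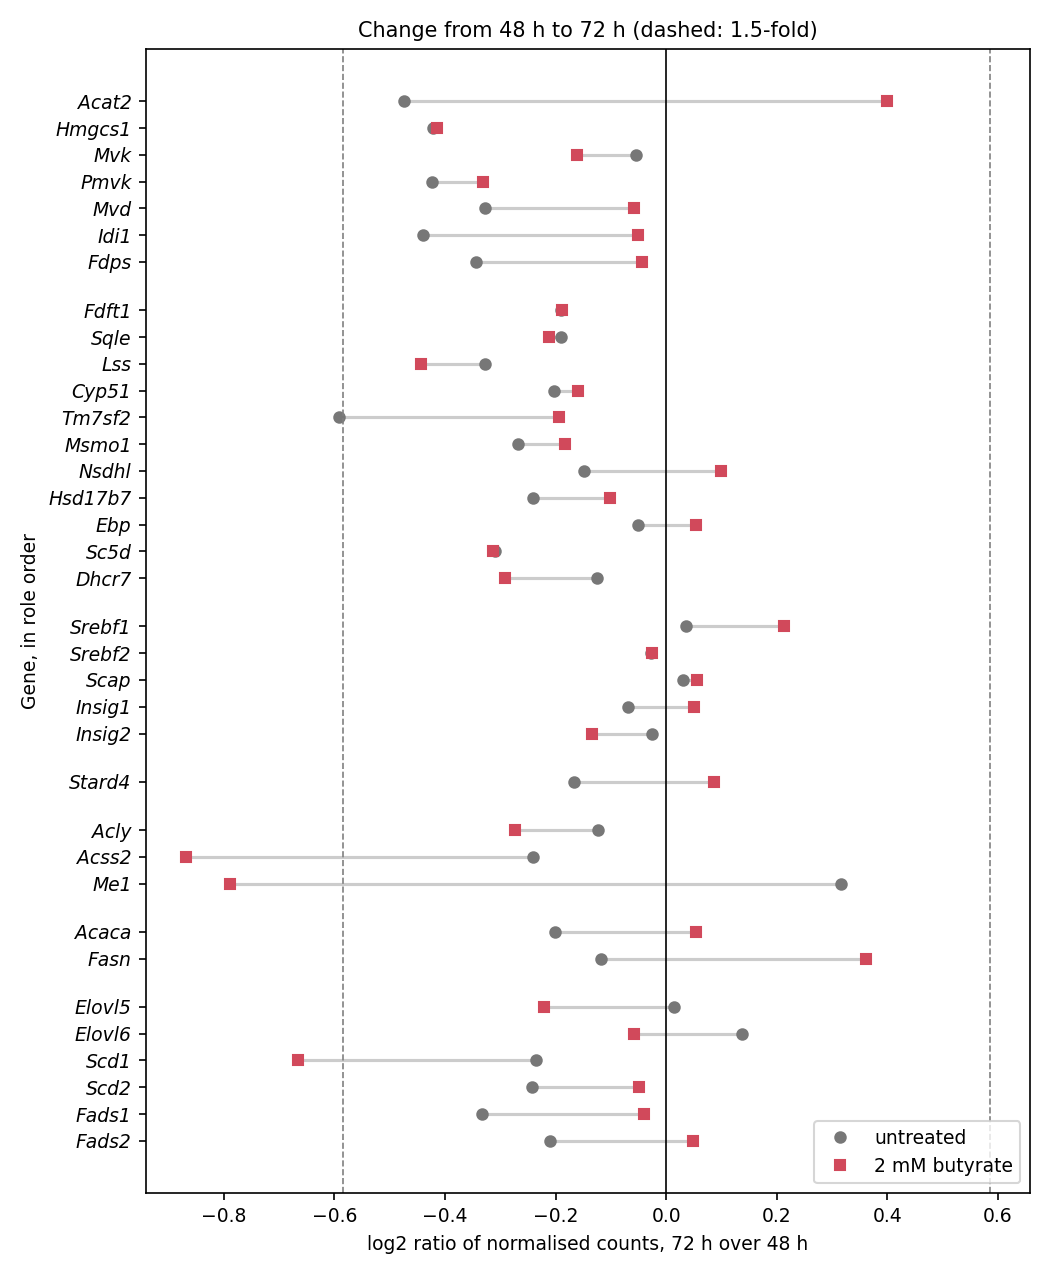
Log2 ratio of normalised counts at 72 h over 48 h for each member, in untreated (grey circles) and butyrate-treated (red squares) colonoids, with 1.5-fold as dashed lines. All 18 mevalonate and sterol genes, at the top, have untreated values below 0, and *Acss2*, *Me1* and *Scd1* have treated values beyond the left line.

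Among all genes, *Acat2* had a lower ratio at 48 h than all but 2.99% of genes, *Tm7sf2* than all but 6.19% and *Fasn* than all but 7.08%, while *Me1* was above 94.3% and *Scd1* above 92.2% of genes. The median fold between the highest and the lowest of the 4 libraries was 1.27 for the members and 1.35 for all genes. The largest such fold was 1.85 for *Scd1* and the smallest 1.04 for *Scap*.

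**Figure D5:**
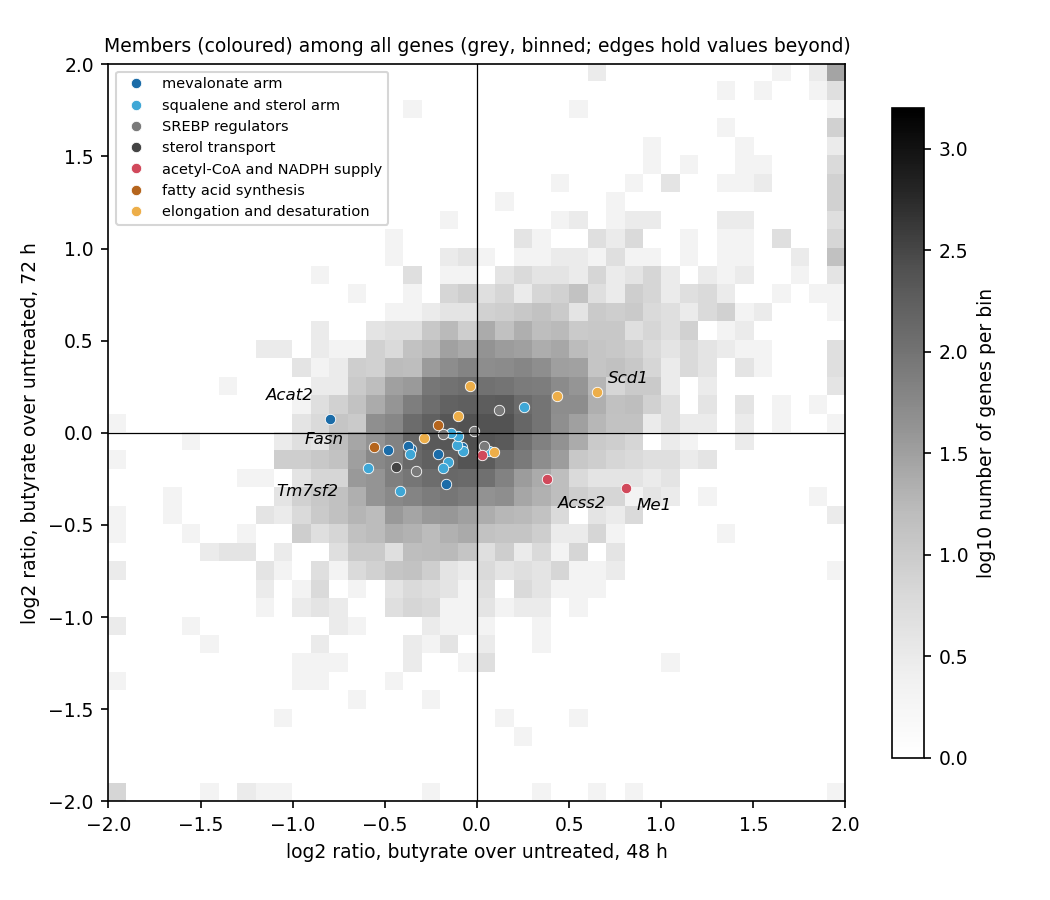
Log2 ratio of butyrate over untreated at 48 h (horizontal) and at 72 h (vertical) for the 35 members, coloured by role, over all 11650 genes in grey bins, with values beyond the axes placed in the edge bins. *Me1* and *Scd1* lie to the right, *Acat2*, *Tm7sf2* and *Fasn* to the left, and *Me1* and *Acss2* in the lower right quadrant.

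Other genes of fatty acid and glycerolipid synthesis were read from a separate list. Of the 22 with sufficient counts, 4 were called higher and none lower at 48 h, beside 8.94% and 6.42% of all genes, with a median of 0.04. At 72 h 1 was called higher and 2 lower, beside 5.87% and 5.13% of all genes. *Acacb*, the mitochondrial-surface carboxylase, had 606 and 1101 normalised counts at 48 h and 529 and 562 at 72 h. Per kilobase, *Acaca* accordingly stood at 2.86 times *Acacb* in untreated and 1.36 times in treated colonoids at 48 h, and at 2.85 and 2.77 times at 72 h. *Scd3*, at 32.7, 115, 19.75 and 32.4 normalised counts, reached a mean of 50 only through the treated 48 h library. The value behind its call at 48 h therefore also admitted it. It was past 1.5-fold at both times, and is 1 of the 4 counted above at 48 h. It is also the 1 counted higher at 72 h, but its interval there, from -0.15 to 1.61 around a log2 ratio of 0.69, included 0.

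Cell type markers moved with the comparisons. The 7 epithelial markers summed to between 141138 and 155855 normalised counts in each library, whereas the summed normalised counts of 6 fibroblast markers were between 15.1 and 21.8, with *Col3a1* and *Lum* at 0 in every library. Those of 4 adipocyte markers were between 56.2 and 81.7, with *Adipoq* and *Lep* at 0, those of 6 immune markers between 41.7 and 71.3, and those of 4 hepatocyte markers between 43.2 and 222.9. Most of the latter was *Ttr*, at 201 and 44.5 normalised counts at 48 h and 169 and 23.8 at 72 h, past 1.5-fold lower at both times. Of 8 colonocyte markers 7 were above 0 at 48 h and all 8 below 0 at 72 h, with median log2 ratios of 0.44 and -0.62. Their summed normalised counts were 93549 and 100908 at 48 h and 125557 and 73544 at 72 h, and no marker was at 0. These ratios had the signs of *Me1* and *Acss2* at both times, and the part of colonocyte content in those values was not tested. *Ceacam1*, of the same list, was instead past 1.5-fold lower at both times, with 61945 and 38676 normalised counts at 48 h and 76588 and 44111 at 72 h.

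Of 7 goblet cell markers 4 were below 0 at 48 h and all 7 at 72 h, with medians of -0.36 and -0.87, and *Zg16*, at 1539.9 and 968 normalised counts at 48 h and 2677 and 463 at 72 h, was past 1.5-fold lower at both times. Of 4 stem cell markers with sufficient counts, 3 were below 0 at 48 h and all 4 above 0 at 72 h, with medians of -0.22 and 0.66. In untreated colonoids all 4 stem cell markers were lower at 72 h, with a median of -0.54, in the same direction as the 18 sterol arm genes, while all 8 colonocyte markers were higher, with a median of 0.47. In butyrate-treated colonoids 3 of the 4 stem cell markers were higher at 72 h, with a median of 0.45, while 15 of the 18 sterol arm genes were lower. The part of cell composition in the time comparison was not tested either. For 8 proliferation genes the median was 0.05 at 48 h and 0.30 at 72 h. Mitochondrial transcripts took between 14.1% and 18.4% of the counts, and library totals were between 20790225 and 24207840.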

How the data were processed

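Poly-A RNA of 4 colonoid cultures was sequenced. The authors deposited whole-number counts per gene, made per the methods with a kallisto pseudoalignment pipeline (0.44.0, GRCm38.p6 per the submitters' notes) and summed with tximport, so the counts are rounded estimates without normalisation. Whether counting used strand is not given in the sources used here. In the deposited names, 26 had become dates and 0 value columns were unmapped. The filter of the methods (counts above 10 in 2 or more libraries) left 13979 genes, which were scaled with DESeq2 1.42.0 size factors, and compared as log2 ratios after a pseudocount of 1. A gene was called at 1.5-fold or more, among the 11650 whose mean normalised count was 50 or more. There were no replicates, hence no test, no p-value and no SD. The 95% intervals cover counting error only, with reads taken as independent, and leave out the spread between cultures. The reads carried no molecular identifiers and can be copies of one molecule, so the intervals may be too narrow even for counting error. Ratios and intervals were tested on simulated Poisson counts without spread between cultures. The intervals assume such counts, so this checks the calculation only. Alternatives were TMM (edgeR 4.0.16) and total counts with or without the mitochondrial genome, a pseudocount of 5, the filter alone, 2-fold, a pooled untreated baseline, and other motif windows and backgrounds. Exon lengths, overlaps and near-copies came from GENCODE and promoters from RefSeq. R 4.3.3 and Python 3.11.15 were used.

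The members and lists were chosen with earlier results of these data known. The rule for named genes took every member, with values in all 4 libraries for those past 1.5-fold, those highest or lowest in each role, and the regulators, and took a few genes of the other lists together with any past 1.5-fold the same way at both times. Values in all libraries for other members, and neighbouring genes, were added after seeing the data. Some genes covered by the rule are not reported here.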

Additional observations from a re-analysis of the deposited data

Results flagged for a closer look

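For 4 members the ratio of butyrate to untreated changed sign from 48 h to 72 h, and neither counting interval included 0. As log2 ratio at 72 h minus that at 48 h, the difference was -1.11 for *Me1* (-1.24 to -0.97), -0.63 for *Acss2* (-0.75 to -0.51), -0.20 for *Elovl6* (-0.30 to -0.10) and 0.19 for *Scd2* (0.17 to 0.22). With 1 library per condition the difference between the times was not tested against replicate error, and intervals cover counting error only. *Me1* and *Acss2* went from above to below 0, as did *Elovl6*, while *Scd2* went from below to above 0. With the mean of both untreated libraries as the baseline, *Scd2* was instead at 0.01 at 48 h and -0.04 at 72 h, and *Elovl6* at 0.02 and -0.04. On that baseline *Me1* was at 0.64 and -0.15, and *Acss2* at 0.49 and -0.37.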

How the results depend on the processing

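No paired analysis was possible because the labels give no replicate numbers, and with 1 library per condition none could be left out. A fit of treatment with time as a term, which would use the difference between the times as its error, was not run. At 2-fold, the number of members called went from 4 to 0 at 48 h. Over time it went from 1 to 0 in untreated colonoids and from 3 to 0 in butyrate-treated colonoids. The share of all genes called at 2-fold is not given here, so these counts cannot be read against a background. With the mean of both untreated libraries as the baseline, 2 members were called at 48 h, *Acat2* and *Tm7sf2* no longer among them, and the median of the members was -0.02 (-0.0245) at 48 h and -0.17 at 72 h. Scaling by total counts moved the median over time in untreated colonoids to -0.28, and moved that of all genes by -0.08. The same scaling moved the median at 72 h with butyrate from -0.08 to -0.03, with 22 members below 0 in place of 25. The Sp1 box was in 70.1% of expressed genes' promoters, from 38.2% of all. Of 560 values of single members under other scalings or the pseudocount of 5, 525 stayed within their counting interval, 9 changed sign and 1 changed its call, *Tm7sf2* at 48 h with total counts. Of 70 under the pooled baseline, 21 stayed within their interval and 49 moved, 11 changed sign and 2 changed their call. The pooled baseline averages the untreated 48 h and 72 h libraries, so its ratios mix the untreated difference over time with treatment. Why values moved under the other scalings was not tested. Depth was not limiting for most members, but 1 library per condition leaves the spread between cultures unknown.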

Other observations

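Genes of related lists that were past 1.5-fold at 1 time are given as values, chosen after they were seen. *Fads3*, a member of the fatty acid desaturase family, had 993 and 2170.2 normalised counts at 48 h and 925 and 1180.5 at 72 h, a log2 ratio of 1.13 at 48 h. *Dgat2*, which makes triacylglycerol, was at 0.65 at 48 h and 0.24 at 72 h. *Agpat2*, an acyltransferase of phosphatidic acid synthesis, was at 0.44 at 48 h and -0.73 at 72 h, and *Mlx*, the partner of the carbohydrate response factor, at -0.19 and -0.67. Of 11 genes of the liver X receptors and sterol efflux, 6 were below 0 at 48 h and 5 at 72 h, with medians of -0.01 and 0.00. Of all genes, 53.1% were below 0 at 48 h and 50.1% at 72 h. Past 1.5-fold were *Abcg5*, a sterol exporter subunit, at 0.64 at 48 h and 0.05 at 72 h, and *Nr1h3*, which encodes a liver X receptor, at -0.45 and -1.33.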
